A study of Homo sapiens with 6 samples.

Results

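The genes described here build the carriers that move proteins and lipids between the endoplasmic reticulum (ER) and the Golgi apparatus. They are 49 genes of COPI, COPII and ER-Golgi traffic out of the 67060 genes in the count table, chosen by name from a list of coat subunits, ARF GTPases with their regulators, TMED proteins, ER-Golgi receptors and Golgi matrix proteins. SH-SY5Y, a human neuroblastoma cell line labelled as a neuronal progenitor, received one of a pair of adenoviruses, and total RNA was taken 24 h later and sequenced after removal of ribosomal RNA. In the first group (ERRγ libraries, replicates 2, 3 and 4) the virus, Ad CMV 3xFlag-*Esrrg*, carried the mouse *Esrrg* coding sequence with a 3xFlag tag behind the CMV promoter, and in the control group (GFP libraries, replicates 1, 3 and 4) it was Ad CMV GFP. Both groups were thus infected, each with 0.5 µl of virus per the labels, and neither group is of uninfected cells. The labels do not say whether libraries came from separate cultures, so that p-values measure the spread between these libraries, which may be technical.

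Between 24969759 and 29700980 reads were counted on genes in the GFP libraries and between 26513620 and 40859666 in the ERRγ libraries. The targeted gene, human *ESRRG*, had 2357, 2796 and 2876 counts in the GFP libraries and 15228, 25994 and 26497 counts in the ERRγ libraries. Reads from the mouse sequence that also align to human *ESRRG* are counted there, so the virus and the cell's own gene are not separated. The cell line was checked against marker genes. Of 9 genes of adrenergic neuroblastoma cells, *TH*, which encodes tyrosine hydroxylase, was listed at 0 counts in every library and was not tested. Of the other 8, 1 was called higher and 3 were called lower with ERRγ, and the summed level of the list was 702 to 765 CPM with GFP and 523 to 692 CPM with ERRγ. CPM are counts per 1000000 counted reads after TMM scaling, which sets the libraries level on genes of middling change. The 7 mesenchymal neuroblastoma genes summed to 3392 to 3414 CPM with GFP and 4159 to 4288 CPM with ERRγ, with 0 called higher and 1 lower. The 4 neural progenitor genes summed to 335 to 396 and 415 to 519 CPM; *PAX6* had at most 3 counts, and *NES*, *SOX2* and *MSI1* were present in every library. The 3 blood genes summed to 0.302 to 0.517 and 0.440 to 0.823 CPM, with *HBA1* and *HBB* at most at 4 counts. The adrenergic sum was lower and the mesenchymal and progenitor sums were higher in every ERRγ library than in every GFP library. The mesenchymal sum was mostly *FN1*, with means of 1956 CPM with GFP and 2691 CPM with ERRγ. The ERRγ libraries were all above the GFP libraries in 2 of the 7 mesenchymal genes and all below them in 3. For the 8 tested adrenergic genes these numbers were 1 and 6. Among tested protein-coding genes the ERRγ libraries were all above in 41.9% and all below in 28.4%. Of the same protein-coding genes 25.9% were called higher and 12.4% lower. The part of these markers in the results on traffic genes was not tested. Reads outside genes, which the counting gave to no gene, made up 52.2, 51.3 and 51.6% of the reads in GFP replicates 1, 3 and 4. In ERRγ replicates 2, 3 and 4 they made up 46.6, 31.6 and 29.5%, so that replicate 2 stood between the GFP libraries and the other ERRγ libraries.

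As background, proteins made at the ER leave it in vesicles coated by COPII. The exchange factor PREB (SEC12) loads the GTPase SAR1 with GTP at the ER, SAR1 recruits the inner coat of SEC23 and SEC24, in which SEC24 picks the cargo, and SEC13 with SEC31 forms the outer cage on scaffolds of SEC16. COPI coats, recruited by ARF GTPases after activation by GBF1, carry escaped ER proteins and receptors back from the Golgi and run between Golgi cisternae. TMED (p24) proteins, KDEL receptors and lectins such as LMAN1 travel in both kinds of carrier, and golgins and GORASP proteins hold the Golgi stack in place. The machinery is known to be scaled with the secretory load of a cell through the unfolded protein response and the CREB3 family of transcription factors.

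With ERRγ, 26 of the 48 traffic genes that could be tested were higher and 0 were lower than with GFP. A gene was called at an adjusted p below 0.05 (edgeR's quasi-likelihood test, Benjamini-Hochberg over 24500 tested genes) together with a change of at least 1.5-fold, which is 0.58 on the log2 scale. In bulk RNA, fewer cells of a kind and less RNA per cell cannot be told apart. Among all tested genes 17.3% were called higher and 16.8% lower, and among the 13746 tested protein-coding genes 25.9% and 12.4%. A single tested member had between 121 and 26099 counts in a library. The 26 called genes were between 1.52-fold and 2.78-fold higher, with a median of 1.99-fold. The median log2 fold change was 0.67 over the 48 genes and 0.12 over protein-coding genes. With no fold cutoff 33 genes were higher and 1, *SAR1B*, was lower, where the shares were 24.3% and 23.5% among all tested genes and 37.6% and 22.4% among protein-coding genes. *SAR1B* was also the only member with a lower value at an unadjusted p below 0.05 in edgeR, and DESeq2 called 27 members higher and 0 lower. Of all 24500 tested genes DESeq2 called 4727 higher and 3218 lower. TMM scaling set the median of all genes at -0.10 and plain library totals at -0.42. Under plain totals 16 members were called higher (8.98% of all tested genes) and 1 lower (30.9%).

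**Figure D1:**
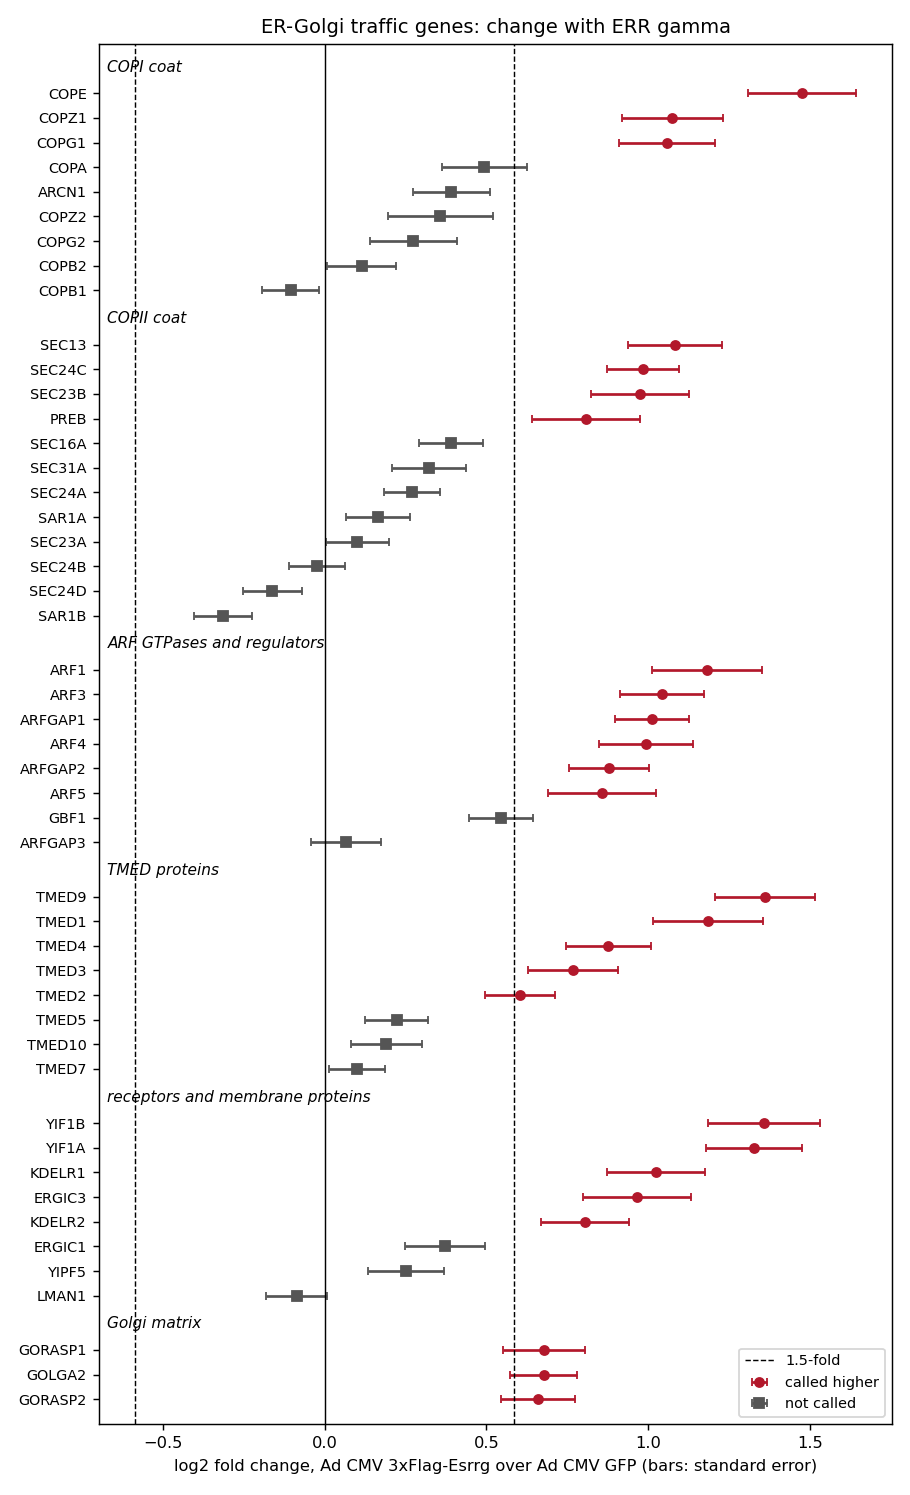
Log2 fold change of the 48 tested genes (x axis, ERRγ over GFP; 3 libraries each; bars are the standard error) with genes in rows by role. Red circles are the 26 genes called higher and grey squares the 22 not called; the dashed lines mark 1.5-fold, and no gene lies beyond the lower one.

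The 3 ERRγ libraries lay above the 3 GFP libraries in 35 of the 48 genes and below them in 3 (*COPB1*, *SEC24D* and *SAR1B*), where the shares were 27.8% and 30.3% among all tested genes and 41.9% and 28.4% among protein-coding genes. The called genes were among the 35 in each case. ERRγ replicate 2 was the lowest of the ERRγ libraries in 44 of the 48 genes and in 26 of the 26 called genes, where it was lowest in 40.8% of all 24500 tested genes and in 89.4% of the 4234 genes called higher in the whole table. The median log2 difference of the 48 genes from the GFP mean was 0.39, 0.70 and 0.81 in ERRγ replicates 2, 3 and 4, the order in which the share of reads outside genes fell (46.6, 31.6 and 29.5%). Without ERRγ replicate 2, 31 members were called higher (22.9% of all genes). With reads outside genes (in %) added to the model, 8 members were called (7.24% of all genes): *COPE*, *SEC24C*, *ARF3*, *ARFGAP1*, *TMED1*, *TMED9*, *YIF1A* and *YIF1B*. That share also differed between the groups, and its part and that of the virus cannot be told apart.

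**Figure D2:**
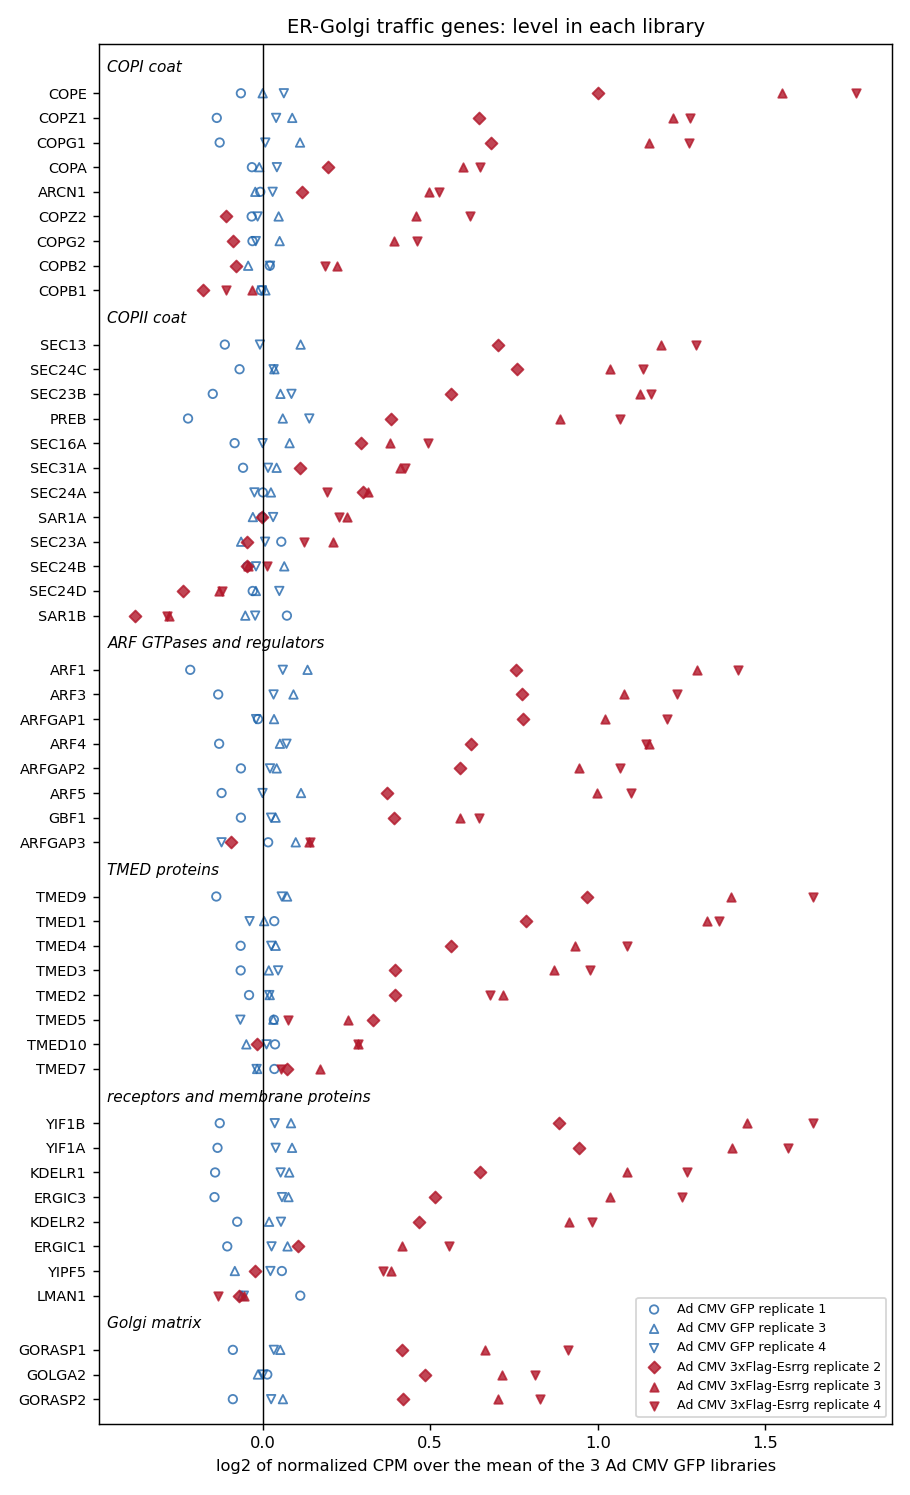
Level of each tested gene in each library, as log2 of CPM over the mean of the 3 GFP libraries (x axis), with genes in rows by role. Open blue symbols are GFP libraries and filled red symbols ERRγ libraries; the red diamonds (ERRγ replicate 2) lie left of the other red symbols in 44 of the 48 rows.

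The start regions of these genes were searched for the letters that transcription factors of the secretory pathway, and ERRγ itself, are known to bind. RefSeq start regions (GRCh38.p14, 250 bases before to 50 after each start) were matched by symbol for 42 of the 49 genes, and a gene counted once however many starts it had. The letters TGACGTGG, the core of the unfolded protein response element that XBP1 and ATF6 bind, occurred on either strand in 8 of the 42 genes (19.05%), against 1.15% of 11099 tested protein-coding genes. They were in 1 of the 21 matched genes called higher (*ARF1*) and in 7 of the 20 not called (*COPA*, *COPB1*, *COPB2*, *SEC16A*, *SEC23A*, *SEC24A* and *GBF1*). The letters ACGTGGC, known as the Golgi apparatus stress response element and bound by TFE3, occurred in 17 of the 42 genes (40.5%) against 5.41% of the tested protein-coding genes, in 8 of the 21 called and 8 of the 20 not called; the other was *SURF4*. Both strings share the letters ACGTGG and overlap where TGACGTGGC occurs, as in *ARF1*, *SEC16A*, *SEC23A* and *SEC24A*. The letters AAGGTCA, which ERR receptors bind as monomers, were in 2 of the 42 genes (4.76%, *PREB* and *TMED10*) against 3.93% among tested protein-coding genes. The longer ERR element TCAAGGTCA, the cyclic AMP response element TGACGTCA and the ER stress element of ATF6 were in 0 of the 42. Their shares among the tested protein-coding genes were 0.261%, 3.63% and 0.144%. These are matches of letters in windows of 300 bases; binding was not measured.
The windows below, read in the direction of the gene from RefSeq on GRCh38.p14, show traffic genes on both sides of the call with the matched letters, or their reverse complement, in capitals. The first 4 hold TGACGTGG, the next 4 hold ACGTGGC and the last 2 hold AAGGTCA.
ARF1, chr1:228082684-228082707, gene on the plus strand: ggaggcgcTGACGTGGccgccgtc
SEC24A, chr5:134648598-134648621, gene on the plus strand: agagtcggTGACGTGGcggcgagg
COPB1, chr11:14499844-14499867, gene on the minus strand: acccccttCCACGTCAgccaagga
COPB2, chr3:139389828-139389851, gene on the minus strand: cagcggcaCCACGTCAcggccctt
SEC24C, chr10:73744292-73744314, gene on the plus strand: aaatgcagACGTGGCagaagaag
TMED2, chr12:123584449-123584471, gene on the plus strand: ctccctttACGTGGCagctgcgg
YIF1B, chr19:38315843-38315865, gene on the minus strand: agtggcgtACGTGGCcggcggag
SAR1A, chr10:70170701-70170723, gene on the minus strand: ccggcgctGCCACGTctcgcgcg
PREB, chr2:27134840-27134862, gene on the minus strand: ttaaaggtTGACCTTcatcaacc
TMED10, chr14:75176644-75176666, gene on the minus strand: ggcatcagAAGGTCAgaggtgag

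Of the 9 COPI genes 3 (33.3%) were called higher, a share near the 25.9% of tested protein-coding genes, and the α, β, β′ and δ subunits were not among them. *COPE* (ENSG00000105669, chromosome 19 from 18899514 to 18919387 of GRCh38), which encodes the ε subunit that binds the α subunit in the outer coat, had 26.2, 27.4 and 28.6 CPM in the GFP libraries and 54.8, 80.3 and 93.5 CPM in the ERRγ libraries. It showed the largest change of all 48 genes, 2.78-fold (log2 fold change 1.48, standard error 0.17, adjusted p = 9.8e-05 from edgeR), and every ERRγ library was above every GFP library. *COPG1*, the γ1 subunit of the inner coat that contacts ARF and cargo, had 142, 168 and 156 CPM in the GFP libraries and 249, 346 and 376 CPM in the ERRγ libraries (log2 fold change 1.06, standard error 0.15, adjusted p = 3.0e-04 from edgeR). *COPZ1*, the small ζ1 partner of the γ subunits, had 89.0, 104 and 101 CPM with GFP and 153, 229 and 237 CPM with ERRγ, with a log2 fold change of 1.08 (standard error 0.16). For *COPG1* and *COPZ1* too the groups did not overlap.

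*COPA*, the α subunit that reads the dilysine tails of retrieved proteins, had 418, 425 and 440.4 CPM in the GFP libraries and 489, 648 and 671 CPM in the ERRγ libraries. Its adjusted p was below the threshold but its change was under 1.5-fold (log2 fold change 0.49, standard error 0.13, adjusted p = 0.010 from edgeR), and it was called without ERRγ replicate 2 (0.73) and with offsets for GC content and length (0.75). *ARCN1*, the δ subunit, was likewise under 1.5-fold (log2 fold change 0.39, standard error 0.12, adjusted p = 0.020 from edgeR), with 193, 191 and 198 CPM in the GFP libraries and 211, 274 and 279.9 CPM in the ERRγ libraries. The β subunit gene *COPB1*, whose start region with TGACGTGG is shown above, had 148, 149 and 148 CPM in the GFP libraries and 131, 145 and 137 CPM in the ERRγ libraries, a log2 fold change of -0.11 that missed the threshold (adjusted p = 0.35, edgeR), and ERRγ libraries all below the GFP libraries. Its sign was positive with the GC content and length offsets (0.08) and without ERRγ replicate 2 (0.04). *COPB2* (β′), with 0.11, and the second γ and ζ genes *COPG2* (0.27) and *COPZ2* (0.36) also missed it (adjusted p from 0.092 to 0.40, edgeR), and in these 3 genes ERRγ replicate 2 lay below the GFP libraries. The sign was negative for *COPB2* and *COPG2* under plain library totals, and for all 3 with reads outside genes in the model. Exons of genes on the other strand cover 34.1% of the exon bases of *COPB2*; the kit kept strand, but the strand setting of the counting is not given in the sources used here.

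Of the 12 COPII genes 4 (33.3%) were called higher, a share near the 25.9% of tested protein-coding genes. *SEC13*, a β-propeller protein of the outer cage that also serves in the nuclear pore, had 76.9, 89.9 and 82.7 CPM in the GFP libraries and 135, 189 and 204 CPM in the ERRγ libraries (log2 fold change 1.08, standard error 0.15, adjusted p = 2.4e-04 from edgeR). *SEC24C*, a cargo-binding subunit of the inner coat, had 71.7, 77.0 and 76.9 CPM in the GFP libraries and 127, 154 and 165 CPM in the ERRγ libraries (log2 fold change 0.99, standard error 0.11, adjusted p = 9.8e-05 from edgeR). Its inner coat partner *SEC23B*, the GTPase-activating subunit, had 51.9, 59.7 and 61.0 CPM with GFP and 84.9, 125 and 129 CPM with ERRγ, with a log2 fold change of 0.97 (standard error 0.15). In these 3 genes the lowest ERRγ library was above the highest GFP library. *PREB*, the SAR1 exchange factor, had 17.9, 21.8 and 23.02 CPM with GFP and 27.2, 38.7 and 43.8 CPM with ERRγ, with a log2 fold change of 0.81 (standard error 0.17) that was 0.42 and not called with the GC content and length offsets. Exons on the other strand cover 42.8% of *SEC24C*.

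Another 3 COPII genes had a higher value with an adjusted p below the threshold (edgeR) and a change under 1.5-fold. They were *SEC16A* (log2 fold change 0.39), the exit site scaffold, *SEC31A* (0.32), the rod of the cage, and *SEC24A* (0.27). *SEC31A* was the most abundant COPII gene by CPM and had 357, 382 and 376 CPM with GFP and 402, 493 and 499 CPM with ERRγ. *SEC23A* had 84.8, 78.1 and 82.1 CPM in the GFP libraries and 79.1, 94.5 and 89.0 CPM in the ERRγ libraries, so that ERRγ replicate 2 lay inside the GFP range (log2 fold change 0.10, standard error 0.10, adjusted p = 0.42 from edgeR). *SEC24B* (-0.02), *SEC24D* (-0.16) and *SAR1A* (0.16) did not pass the threshold either. *SAR1B*, the GTPase isoform known for its part in chylomicron export in the gut, was the member with the lowest log2 fold change, with 42.8, 39.2 and 40.1 CPM in the GFP libraries and 31.3, 33.5 and 33.4 CPM in the ERRγ libraries (log2 fold change -0.31, standard error 0.09, adjusted p = 0.015 from edgeR), all 3 ERRγ libraries below the GFP libraries and a change under 1.5-fold. Under plain library totals it was called lower (-0.64), and with the GC content and length offsets its log2 fold change was 0.01.

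The ARF GTPases were called higher in each of the 4 genes listed, against 25.9% of tested protein-coding genes. *ARF1*, the GTPase that recruits COPI, was the most abundant member per exon length and had 247, 315 and 299 CPM in the GFP libraries and 484, 704 and 766 CPM in the ERRγ libraries. Its mean was 287 ± 35.5 CPM with GFP and 651 ± 148 CPM with ERRγ (mean ± SD, n = 3 each), 2.27-fold apart (log2 fold change 1.18, standard error 0.17, adjusted p = 3.4e-04 from edgeR). *ARF3*, a close relative that acts at the trans-Golgi network, had 143, 167 and 159.8 CPM with GFP and 267, 329.8 and 369 CPM with ERRγ. *ARF4*, which acts with ARF1 at the early Golgi, had 162, 184 and 187 CPM with GFP and 273, 395 and 393 CPM with ERRγ. *ARF5*, its nearest relative, had 42.0, 49.5 and 45.7 CPM with GFP and 59.1, 91.2 and 98.0 CPM with ERRγ. The log2 fold changes of *ARF3*, *ARF4* and *ARF5* were 1.04 (standard error 0.13), 0.99 (0.15) and 0.86 (0.17), and the groups did not overlap for any of them. *ARF4* had the lowest GC content of the ARF genes (40.3%) and was the member with the largest change under the GC content and length offsets (1.22). Exons of other genes cover 16.0% of *ARF5* on its own strand and 22.2% on the other, 14.0% of *ARF3* on its own strand and 18.5% of *ARF4* on the other.

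Of the regulators, the GTPase-activating proteins *ARFGAP1* and *ARFGAP2*, which end the ARF cycle on COPI coats, were called higher and *ARFGAP3* was not. *ARFGAP1* had 51.0, 52.8 and 50.8 CPM in the GFP libraries and 88.4, 105 and 119 CPM in the ERRγ libraries (log2 fold change 1.01, standard error 0.11, adjusted p = 9.7e-05 from edgeR). *ARFGAP2* had 53.0, 57.1 and 56.3 CPM with GFP and 83.4, 107 and 116 CPM with ERRγ, with a log2 fold change of 0.88 (standard error 0.12). *ARFGAP3* had 23.1, 24.4 and 20.9 CPM with GFP and 21.4, 25.1 and 25.1 CPM with ERRγ, overlapping groups and a log2 fold change of 0.07 (adjusted p = 0.63, edgeR). Neither *ARFGAP1* (0.57) nor *ARFGAP2* (0.49) was called with the GC content and length offsets. *GBF1*, the large exchange factor that activates ARF at the early Golgi, lay just under the cutoff at 1.46-fold, with 98.0, 105 and 104 CPM in the GFP libraries and 134, 154 and 160.4 CPM in the ERRγ libraries (log2 fold change 0.55, standard error 0.10, adjusted p = 0.0013 from edgeR). Without ERRγ replicate 2 it was called (0.73), and DESeq2 called it as well.

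The TMED proteins cycle between ER and Golgi as cargo adaptors for lipid-anchored proteins and bind both coats through their short tails. They were called higher in 5 of 8 genes (62.5%), against 25.9% of tested protein-coding genes. *TMED9*, of the α subfamily, had 41.6, 48.2 and 47.6 CPM in the GFP libraries and 89.7, 121 and 143 CPM in the ERRγ libraries (log2 fold change 1.36, standard error 0.15, adjusted p = 9.8e-05 from edgeR). *TMED1*, of the γ subfamily, was the least abundant member per exon length with GFP and had 121, 130 and 135 counts in the GFP libraries and 193, 354 and 367 counts in the ERRγ libraries. Its log2 fold change was 1.19 (standard error 0.17), and exons on the other strand cover 48.3% of it. *TMED4*, the other α member, had 125, 135 and 134 CPM with GFP and 194, 250.4 and 279 CPM with ERRγ, with a log2 fold change of 0.88. *TMED3*, of the γ subfamily like *TMED1*, had 74.1, 78.5 and 80.0 CPM with GFP and 102, 142 and 153 CPM with ERRγ, with a log2 fold change of 0.77. In all 4 genes the groups did not overlap.

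*TMED2*, the only β member and a partner in p24 complexes with the others, was close to the cutoff, with 151, 157 and 157 CPM in the GFP libraries and 204, 255 and 248 CPM in the ERRγ libraries (log2 fold change 0.60, standard error 0.11, adjusted p = 0.0012 from edgeR). It was not called without ERRγ replicate 3, ERRγ replicate 4 or GFP replicate 1. *TMED10*, the δ member and by CPM the most abundant TMED gene in the GFP libraries, had 284, 268 and 279 CPM in the GFP libraries and 274, 338 and 338 CPM in the ERRγ libraries, with ERRγ replicate 2 within the GFP range (log2 fold change 0.19, standard error 0.11, adjusted p = 0.18 from edgeR). The γ members *TMED5* and *TMED7* had log2 fold changes of 0.22 and 0.10 (adjusted p = 0.082 and 0.36, edgeR), although the ERRγ libraries were above the GFP libraries in both. *TMED7* shares 19.98% of its exon bases with other genes on its strand.

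Among receptors and membrane proteins, 5 of the 8 tested genes (62.5%) were called higher, against 25.9% of tested protein-coding genes. *KDELR1*, a receptor that returns soluble ER proteins with a KDEL tail, had 167, 195 and 191 CPM in the GFP libraries and 289, 392 and 443 CPM in the ERRγ libraries (log2 fold change 1.02, standard error 0.15, adjusted p = 3.9e-04 from edgeR). *KDELR2* had 191, 204 and 209 CPM with GFP and 278, 379 and 397 CPM with ERRγ, with a log2 fold change of 0.81 (standard error 0.14). *YIF1A* and *YIF1B*, membrane partners of the YIP1 family, were among the 4 largest changes. *YIF1A* had 23.3, 27.2 and 26.3 CPM with GFP and 49.3, 67.6 and 75.8 CPM with ERRγ. *YIF1B* had 12.0, 13.9 and 13.5 CPM with GFP and 24.2, 35.8 and 41.1 CPM with ERRγ. Their log2 fold changes were 1.33 (standard error 0.15) and 1.36 (0.17). *ERGIC3*, a cargo receptor of the intermediate compartment, had 138, 160.3 and 158 CPM with GFP and 217, 312 and 362 CPM with ERRγ (log2 fold change 0.97, standard error 0.17, adjusted p = 9.3e-04 from edgeR).

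*ERGIC1*, the partner of ERGIC3, was under 1.5-fold, with 121, 137 and 133 CPM with GFP and 140.2, 174 and 192 CPM with ERRγ (log2 fold change 0.37, standard error 0.12, adjusted p = 0.028 from edgeR). *YIPF5* (0.25, adjusted p = 0.10, edgeR) was not called, and its ERRγ replicate 2 lay within the GFP range. *LMAN1*, the mannose lectin that exports clotting factors together with MCFD2, had 181, 160.1 and 161 CPM in the GFP libraries and 159, 161 and 152 CPM in the ERRγ libraries, with overlapping groups (log2 fold change -0.09, standard error 0.09, adjusted p = 0.47 from edgeR). *SURF4*, a receptor for soluble cargo, had 1 count in ERRγ replicate 3 and 0 in the other 5 libraries, was not tested and is given no level here. The table keeps reads with several alignments in an entry apart from the genes, and 0% of *SURF4* transcript words of 31 bases occurred in the 261 alternate contigs of GRCh38. The Golgi matrix genes *GOLGA2* (GM130), *GORASP1* (GRASP65) and *GORASP2* (GRASP55), which act together in stacking cisternae and tethering vesicles, were all called higher by nearly the same size, with log2 fold changes of 0.68, 0.68 and 0.66. *GOLGA2* had 77.9, 76.4 and 77.2 CPM with GFP and 108, 127 and 136 CPM with ERRγ. *GORASP1* had 20.9, 23.1 and 22.8 CPM with GFP and 29.7, 35.2 and 41.8 CPM with ERRγ. *GORASP2* had 71.5, 79.3 and 77.4 CPM with GFP and 102, 124 and 135 CPM with ERRγ. In all 3 the ERRγ libraries were above the GFP libraries, with replicate 2 the lowest of them. Among tested protein-coding genes 25.9% were called higher. These changes were near the cutoff: 0 of the 3 were called under plain library totals, in a test against 1.5-fold or with protein-coding genes fitted and scaled alone. With the GC content and length offsets *GORASP2* was called, and without ERRγ replicate 4 *GOLGA2* was called.

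Ratios of related genes within a library need no scaling between libraries, and 13 pairs were compared with an exact two-sided permutation test on the log2 ratio of counts. With 3 libraries against 3 the smallest possible p is 0.1, and the smallest Benjamini-Hochberg adjusted p over the 13 pairs was 0.144, so that no pair could pass 0.05. The ratio of *SEC24C* to *SEC24D* counts was 0.371, 0.396 and 0.376 in the GFP libraries and 0.759, 0.855 and 0.909 in the ERRγ libraries, a mean log2 difference of 1.14 (exact p = 0.1). Per length of all annotated exons (5353 bases for *SEC24C* and 9920 for *SEC24D*), the mean ratio was 0.705 with GFP and 1.55 with ERRγ. By counts *SEC24D* was the higher gene in every library, so that the order of their levels depends on the length used. That of *SEC23A* to *SEC23B* was 1.64, 1.31 and 1.34 in the GFP libraries and 0.932, 0.753 and 0.692 in the ERRγ libraries (-0.86, exact p = 0.1), so that the ERRγ libraries all had less *SEC23A* for each count of *SEC23B*. For *KDELR1* to *KDELR2* the difference was 0.21, without overlap (exact p = 0.1). The ratios are not adjusted for GC content, which was 54.5% for *KDELR1* and 43.3% for *KDELR2*. With the GC content and length offsets their log2 fold changes were 0.76 and 0.90, so that the order turned. Those of *ARF4* and *ARF5* (40.3% and 56.6% GC) were 1.22 and 0.60, further apart than without the offsets. The ratio of *COPG1* to *COPG2* was 2.06, 2.30 and 2.25 in the GFP libraries and 3.76, 3.74 and 3.87 in the ERRγ libraries (0.79, exact p = 0.1). Replicate 2 was level with the other ERRγ libraries in this ratio, although each of both genes alone was lower in it.

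The ratio of *COPZ1* to *COPZ2* was 5.50, 6.08 and 6.14 in the GFP libraries and 9.98, 10.1 and 9.31 in the ERRγ libraries (0.73, exact p = 0.1). The ratio of *ARFGAP2* to *ARFGAP3* differed by 0.80 and that of *TMED3* to *TMED7* by 0.65 on the log2 scale, both without overlap (exact p = 0.1 each). *SAR1A* to *SAR1B* (0.47) and *SEC24A* to *SEC24B* (0.29) differed by less, also without overlap (exact p = 0.1 each). In contrast, *GORASP1* to *GORASP2* was 0.293, 0.291 and 0.295 in the GFP libraries and 0.292, 0.285 and 0.310 in the ERRγ libraries (0.01, exact p = 0.9). The ratio of *YIF1A* to *YIF1B* was 1.94, 1.95 and 1.95 in the GFP libraries and 2.03, 1.89 and 1.85 in the ERRγ libraries (-0.02, exact p = 0.7). The groups also overlapped for *ARF1* to *ARF3* (0.13, exact p = 0.3) and *ARF4* to *ARF5* (0.15, exact p = 0.2).

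**Figure D3:**
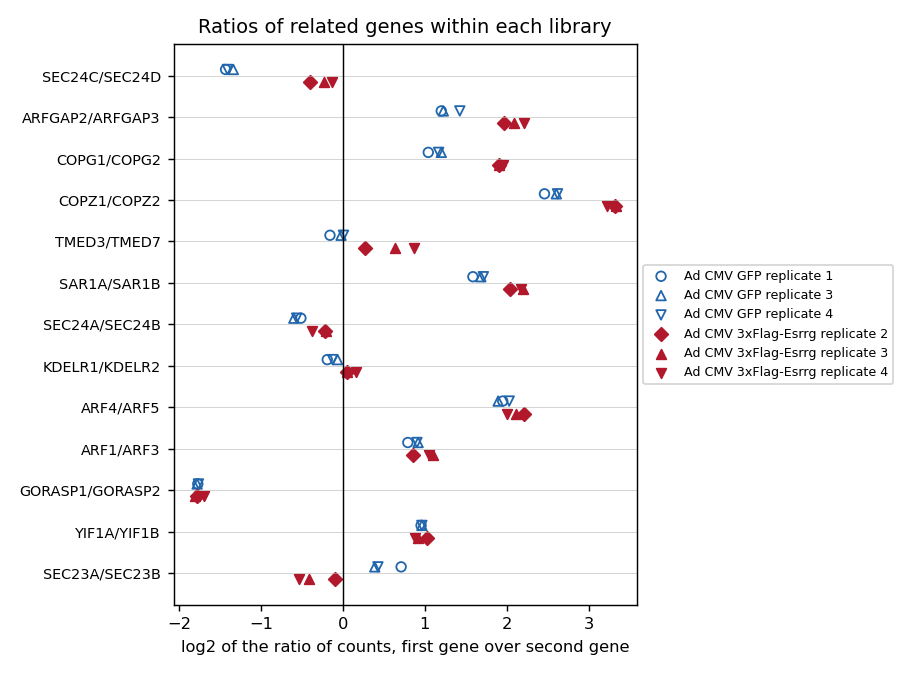
Ratio of the counts of related genes within each library (x axis, log2; a value of 0 means equal counts) for 13 pairs. Open blue symbols are GFP and filled red symbols ERRγ libraries; the largest shifts are in *SEC24C*/*SEC24D* and *SEC23A*/*SEC23B*, while *GORASP1*/*GORASP2* and *YIF1A*/*YIF1B* overlap.

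Levels between genes were compared as CPM per 1000 exon bases, using all annotated exons of a gene, which lowers the value of genes with long rare transcripts. By this scale the highest members with GFP were *ARF1* (88.7), *KDELR1* (82.2) and *ARF4* (68.5), and they held the same ranks with ERRγ, at 201, 167 and 136. The lowest with GFP were *TMED1* (2.22), *GORASP1* (2.49) and *YIF1B* (2.78). Summed over the 49 genes, the members took 5390.5, 5715 and 5692 CPM in the GFP libraries and 7056, 9041 and 9502 CPM in the ERRγ libraries.

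Genes of the same pathway outside the 49 were read from a list of 93, of which 88 were tested: 29 (33.0%) were called higher and 4 lower, against 25.9% and 12.4% of tested protein-coding genes, with a median log2 fold change of 0.21. The split was 15 higher and 16 lower under plain library totals, where 8.98% and 30.9% of all tested genes were called. It was 18 and 7 with protein-coding genes fitted and scaled alone, where 2814 and 2468 of 13746 genes were called. Cargo receptors and exit site organizers had the largest number, 10 of 19 tested higher and 0 lower, led by *YIPF2* (1.24) and *BCAP31* (1.19), an ER membrane chaperone. Among SNAREs, which fuse the vesicles, 5 of 16 were higher. *BET1L* had 24.3, 29.0 and 27.4 CPM with GFP and 47.5, 57.8 and 60.6 CPM with ERRγ (1.04). *YKT6* had 136, 157 and 149.8 CPM with GFP and 243, 324 and 342 CPM with ERRγ (1.04). Of the TRAPP and DSL1 tethers 4 of 17 (23.5%) were higher, below the protein-coding share, led by *TRAPPC1* (1.06) and *TRAPPC2L* (1.04). The golgins, long coiled-coil tethers of the Golgi, had 2 of 12 tested genes called lower, *GCC2* (-0.66) and giantin, *GOLGB1* (-0.65). *GCC2* had 77.4, 88.2 and 68.3 CPM in the GFP libraries and 60.2, 46.8 and 41.4 CPM in the ERRγ libraries, and the ERRγ libraries were all below the GFP libraries. In the COG complex, a tether for vesicles within the Golgi, 3 of 8 were higher, led by *COG1* (0.71), and *COG6* was lower with 41.1, 40.8 and 38.9 CPM in the GFP libraries and 27.9, 22.3 and 20.7 CPM in the ERRγ libraries (log2 fold change -0.77, standard error 0.12, adjusted p = 4.9e-04 from edgeR). Of 6 further genes of ARF proteins and proteins that act with them, *ARFIP2* (1.18) and *ARFRP1* (0.67) were higher and *ARFGEF1* (-0.64) was lower. The GTPase gene *ARF6* (0.23) was not called. *GOLGB1*, *ARFGEF1* and *ARF6* are named here after their values were seen. None of the 4 lower genes was called with the GC content and length offsets, where their log2 fold changes were -0.49, -0.26, -0.24 and -0.40 for *COG6*, *GCC2*, *GOLGB1* and *ARFGEF1*.

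Regulators that are known to set secretory capacity were read in the same fit. Of the 10 tested, 4 (40%) were called higher, against 25.9% of tested protein-coding genes. *CREB3L1* (OASIS), a transcription factor released from the ER membrane by cleavage in the Golgi, had 22.7, 23.1 and 22.6 CPM in the GFP libraries and 64.3, 75.4 and 84.6 CPM in the ERRγ libraries (log2 fold change 1.71, standard error 0.11, adjusted p = 4.9e-06 from edgeR). *XBP1*, a transcription factor of the unfolded protein response, had 40.2, 46.9 and 45.8 CPM in the GFP libraries and 80.6, 117 and 117 CPM in the ERRγ libraries (log2 fold change 1.24, standard error 0.14, adjusted p = 1.1e-04 from edgeR). *CREB3* (Luman), of the same family as CREB3L1, had 28.9, 33.0 and 34.7 CPM with GFP and 51.3, 83.6 and 84.1 CPM with ERRγ (log2 fold change 1.18). *HSPA5*, which encodes the ER chaperone BiP, had 387, 429 and 394 CPM with GFP and 708, 911 and 892 CPM with ERRγ (1.05). The groups did not overlap in any of these 4. *CREB3L2* (-0.05), a factor known to activate *SEC23A* in cartilage, *ATF6* (-0.00050), *ERN1* (-0.09), *CREB3L4* (0.10) and *MBTPS2* (0.08) did not pass the threshold. The site-1 protease *MBTPS1*, which cleaves ATF6, was under 1.5-fold (log2 fold change 0.45, standard error 0.12, adjusted p = 0.0095 from edgeR). *ATF6B* and *CREB3L3* had too few counts to be tested. *ATF6B* was listed at 0 counts in every library and is given no level here. Of its transcript words, taken as for *SURF4*, 82.0% occurred in the alternate contigs. For *CREB3L3*, which had at most 4 counts in a library, this share was 0%. Whether reads of *ATF6B* were set apart for having several alignments was not tested. Counts give transcript levels and do not show splicing of *XBP1* or cleavage of these factors.

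The called members were richer in GC than the others. The median GC content of the longest transcript was 53.0% over the 26 called genes and 42.9% over the other 22. Across the 48 genes the log2 fold change went with GC content at Pearson's r = 0.74 and Spearman's rho = 0.73, and with log2 exon length at r = -0.42 and rho = -0.45. Across the 13746 tested protein-coding genes the values for GC content were r = 0.33 and rho = 0.40. These correlations are across genes measured in the same 6 libraries, and genes are not independent replicates. After smooth curves of GC content and length had been removed from each library, 22 members were called higher (15.2% of all tested genes), 21 of them among the 26. The genes no longer called were *ARFGAP1*, *ARFGAP2*, *GOLGA2*, *GORASP1* and *PREB*, and *COPA* was added. The median log2 fold change of the members was then 0.53, that of protein-coding genes 0.10, and r with GC content over the members 0.30. *COPE* (1.00), *SEC13* (0.93), *TMED9* (1.04) and *COPZ1* (1.00) remained called.

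**Figure D4:**
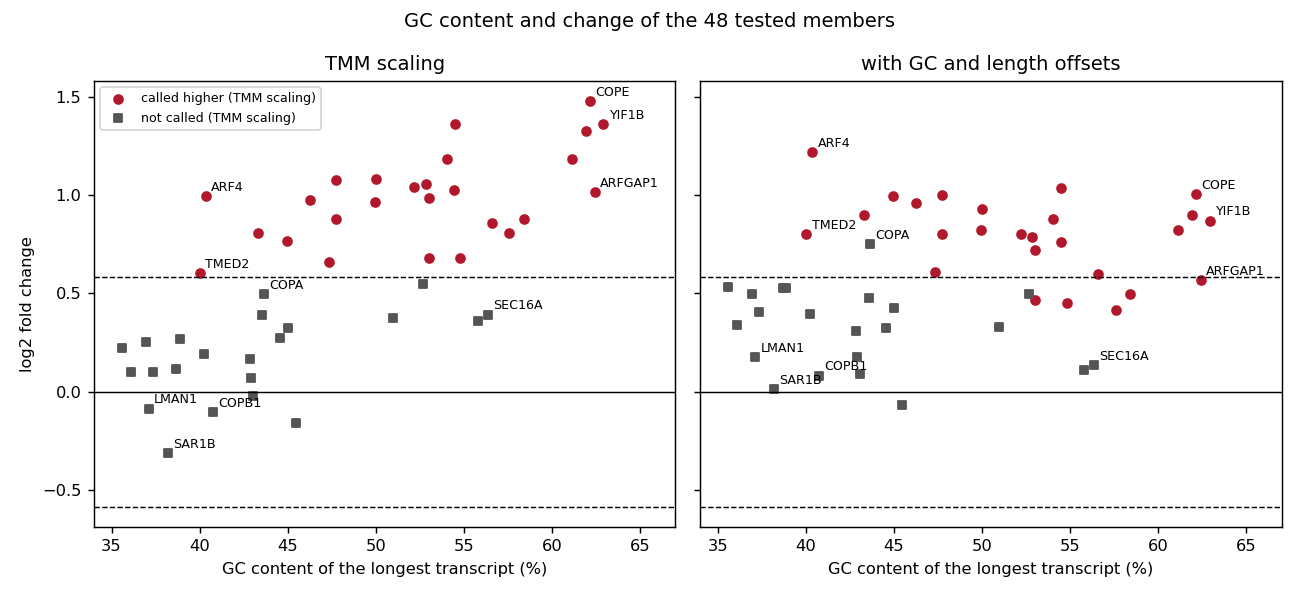
GC content of the longest transcript (x axis, %) against the log2 fold change (y axis) of the 48 tested genes, with TMM scaling (left) and with offsets for GC content and length (right). Red circles are the 26 genes called with TMM scaling and the dashed lines mark 1.5-fold; the rise with GC content is weaker on the right, where *ARF4* is the highest gene.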

How the data were processed

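The deposited table holds raw counts per gene for 6 libraries. Per the labels, the authors made it with Trim Galore 0.6.7, STAR 2.7.9a, HTSeq 0.11.3 and GRCh38; annotation release and strand setting are not given in the sources used here. 5 summary entries (reads outside genes, ambiguous and others) were kept out of library sizes and tests. Symbols, exon lengths and positions came from GENCODE release 44, which matched 90.1% of the 67060 genes.

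Genes passing filterByExpr were fitted with edgeR 4.0.16 (R 4.3.3; TMM scaling, quasi-likelihood test), without covariates, and called at an adjusted p below 0.05 (Benjamini-Hochberg over 24500 genes) and at least 1.5-fold, the cutoffs that the study's methods give for its mouse RNA-seq. Standard errors were obtained by dividing log2 fold changes by the root of the F statistic. On simulated counts for 24500 genes, 167 of 200 changed genes had an adjusted p below 0.05 with the simulated sign, no fold cutoff being used. Of the unchanged genes, 10 passed both cutoffs. As only 200 genes were changed, up and down in equal number, the simulation does not test the scaling where many genes change. Ratios used counts plus 0.5. Alternatives were DESeq2 1.42.0, other scalings and filters, offsets for GC content and length, reads outside genes as a covariate, a replicate block and leaving out each library.

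All members are named, as are all regulators and, in each group of the 93 other traffic genes, the 2 called genes that changed most and averaged 50 counts or more. A gene that this rule picks is not reported here. Members and lists were chosen with earlier results of these data known.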

Additional observations from a re-analysis of the deposited data

Results flagged for a closer look

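Reads that overlapped more than 1 gene and were therefore given to none, a share that no comparison of the report uses, were between 4.55% and 4.87% of all reads in the GFP libraries. The lowest ERRγ library (replicate 2) had 5.69%, and the other ERRγ libraries had 9.84% and 9.79%. Such reads are missing from members whose exons overlap those of other genes, on either strand if the counting ignored strand, which is not known. Their part in the levels given was not tested.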

How the results depend on the processing

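The direction of the 26 called members was kept under the 18 alternatives, and what varied was whether a gene passed the threshold and the fold cutoff. The alternatives without a fold cutoff and with a test against 1.5-fold use the fold changes of the reported fit, so their direction could not differ. The lowest number of members called higher came with reads outside genes in the model, and the cause was not tested. With depths of 121 to 26099 counts per library over the tested members, the limits are the 3 libraries per group, the gap between ERRγ replicate 2 and the other ERRγ libraries, and the strand setting and annotation release of the counting, which are not given in the sources used here.

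A count was taken as moved when it changed by more than 1.5-fold, or to or from 0. Smaller changes are not in the list that follows. Among them, 18 members were called higher in the test against 1.5-fold, where 2207 of all 24500 tested genes were. With protein-coding genes alone 22 members were called higher, where 2814 of 13746 genes were. Settings that moved a count by this rule were these. With DESeq2 there was 1 other traffic gene lower. With the GC content and length offsets there were 0 other traffic genes lower and 1 Golgi matrix gene higher. With RLE size factors there was 1 other traffic gene lower. Under plain library totals there were 16 members called higher, 1 member called lower, 15 other traffic genes higher, 16 other traffic genes lower, 1 COPII gene lower, 2 TMED genes higher and 0 Golgi matrix genes higher, and the median log2 fold change of the members was 0.34. With protein-coding genes alone there were 18 other traffic genes higher, 7 other traffic genes lower and 0 Golgi matrix genes higher. With reads outside genes in the model there were 8 members called higher, 6 other traffic genes higher, 0 other traffic genes lower, 1 COPI gene higher, 1 COPII gene higher, 2 ARF genes or regulators higher, 2 TMED genes higher, 2 receptors and membrane proteins higher and 0 Golgi matrix genes higher, and the median log2 fold change of the members was 0.29. In a test against 1.5-fold there were 15 other traffic genes higher, 0 other traffic genes lower, 3 TMED genes higher and 0 Golgi matrix genes higher. Without a fold cutoff there was 1 member called lower, 17 other traffic genes lower, 5 COPI genes higher, 7 COPII genes higher and 1 COPII gene lower. Values with a library left out and with a replicate block are given after these.

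In brackets are log2 fold changes of members and regulators whose sign turned, none of which was called in the reported fit. Of the other traffic genes called higher, *TRAPPC6A* (-0.22) and *CNIH4* (-0.0093), named after their values were seen, turned with reads outside genes in the model. With DESeq2 the sign turned for *SEC24B* (0.054), *ATF6* (0.081) and *CREB3L2* (0.024). With the GC content and length offsets the sign turned for *COPB1* (0.081), *SEC24B* (0.087), *SAR1B* (0.011), *LMAN1* (0.17), *ATF6* (0.30) and *CREB3L4* (-0.17). With RLE size factors the sign turned for *SEC24B* (0.054), *ATF6* (0.081) and *CREB3L2* (0.024). Under plain library totals the sign turned for *COPB2* (-0.21), *COPG2* (-0.063), *SEC23A* (-0.23), *SEC24A* (-0.047), *SEC31A* (-0.0069), *SAR1A* (-0.16), *ARFGAP3* (-0.26), *TMED5* (-0.088), *TMED7* (-0.22), *TMED10* (-0.14), *YIPF5* (-0.081), *CREB3L4* (-0.23) and *MBTPS2* (-0.25). With protein-coding genes alone the sign turned for *COPB2* (-0.025), *SEC23A* (-0.038), *ARFGAP3* (-0.071), *TMED7* (-0.035), *CREB3L4* (-0.036) and *MBTPS2* (-0.062). With reads outside genes in the model the sign turned for *COPB2* (-0.16), *COPG2* (-0.26), *COPZ2* (-0.33), *ARCN1* (-0.0051), *SEC23A* (-0.097), *SAR1A* (-0.074), *ARFGAP3* (-0.17), *TMED10* (-0.10), *YIPF5* (-0.13), *ERGIC1* (-0.032), *CREB3L4* (-0.19) and *MBTPS2* (-0.012). With no filter on low counts the sign turned for *ATF6* (0.0058).

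With 1 library left out at a time, 23 to 31 members were higher, lowest without ERRγ replicate 4 and highest without ERRγ replicate 2. Over all tested genes 3710 of 25463 were called higher without ERRγ replicate 4 and 5820 of 25369 without ERRγ replicate 2. Of the other traffic genes 24 to 37 were higher and 2 to 5 lower, 2 without ERRγ replicate 4. COPI genes higher ranged from 3 to 6 (6 without ERRγ replicate 2) and Golgi matrix genes from 1 to 3 (1 without ERRγ replicate 4). Log2 fold changes of both signs were found for *COPB1* (-0.14 to 0.037), *SEC24B* (-0.047 to 0.094), *LMAN1* (-0.12 to 0.012), *ATF6* (-0.048 to 0.19), *ERN1* (-0.13 to 0.026) and *CREB3L2* (-0.081 to 0.073), and differences of both signs for the log2 paralog ratios YIF1A/YIF1B (-0.060 to 0.0091) and GORASP1/GORASP2 (-0.022 to 0.038). With 2 libraries against 3 the smallest exact p for a ratio is 0.2. Adding 1 in place of 0.5 to the counts turned no ratio.

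The groups share the replicate numbers 3 and 4 alone, and the deviations from the group means of libraries with the same number correlated at r = 0.075 and r = -0.00010 across genes, so the numbers were not taken as pairs. With the replicate number as a block, in which replicates 1 and 2 each have a level of their own and add nothing to the comparison, 28 members were higher, and 25 with the GC content and length offsets as well. Of all 24500 tested genes 4742 were called higher with the block, and 4274 with the block and these offsets. With the replicate number as a block the sign turned for *ATF6* (0.096). With the replicate number as a block together with the GC content and length offsets there were 0 other traffic genes lower, 6 COPI genes higher and 1 Golgi matrix gene higher. With the replicate number as a block together with the GC content and length offsets the sign turned for *COPB1* (0.14), *SEC24B* (0.088), *SAR1B* (0.13), *LMAN1* (0.28), *ATF6* (0.43) and *CREB3L4* (-0.18).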
